A study of Mus musculus with 4 samples.

Results

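Cyclins, cyclin-dependent kinases (CDKs) and CDK inhibitors were compared between wild-type (WT) and Haspin-KO mouse embryonic stem cells (mESCs). The genes were chosen by symbol: Ccn followed by a letter, Cdk followed only by a number, or Cdkn1, Cdkn2 or Cdkn3 as the start of the name. The pattern matched 61 genes. Of these, 3 with the pseudogene suffix -ps and 3 genes excluded by name (Cdkn1a, Cdkn1c and Ccng1) were left out, which gave 55 genes of the 55401 in the deposited table. The edgeR filter on low counts kept 52 of the 55 genes among 15580 genes tested. The 3 that failed it were Cdk3 with 7 to 16 counts per library, Cdk15 with 0 to 2 and the meiotic cyclin gene Ccnb3 with 0 to 1.

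Cyclins are the activating subunits of CDKs, and their synthesis and destruction set when each kinase works. D-type cyclins with CDK4 or CDK6, and E-type cyclins with CDK2, phosphorylate the retinoblastoma protein and release E2F factors, whereas cyclins A and B with CDK2 and CDK1 carry cells through DNA replication and into mitosis. INK4 proteins bind CDK4 and CDK6, and CIP/KIP proteins such as p27 bind cyclin-CDK complexes. mESCs are known for a short G1 phase and high cyclin E-CDK2 activity. Other members of the same families, among them CDK7, CDK9 and CDK12, phosphorylate RNA polymerase II and act in transcription.

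All 4 libraries came from E14, an established mESC line, grown in Knockout DMEM with serum, LIF and the 2i inhibitors of MEK and GSK3, with no further treatment named. The WT group held 2 libraries of E14 cells without a knockout. The Haspin-KO group held 2 libraries of E14 cells that had received 2 guide RNAs against Haspin, the kinase of histone H3 threonine 3, in the Cas9 vector pX459. After puromycin, single clones negative for H3T3ph staining had been picked, and the labels do not say which clone each library came from. The methods describe a mitomycin C-treated layer of mouse embryonic fibroblasts (MEFs) for passaging and gelatin for assays, and do not say on which the cells for sequencing grew. No source says that the 2 libraries of a group came from separate cultures, so every p-value here measures the spread between these libraries only.

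The counts summed to 21834847 and 17452307 in WT and to 14207828 and 14436750 in Haspin-KO cells. A count of 3, taken as the floor of a library, corresponded to 0.137 to 0.21 CPM (counts scaled to a common library total, with TMM factors), and covers counting error only. Adjusted p-values are Benjamini-Hochberg values over the 15580 genes, from the quasi-likelihood test of edgeR unless another tool is named. Haspin itself had 40.0 and 35.7 CPM in WT and 10.4 and 14.6 CPM in Haspin-KO libraries, with a log2 fold change of -1.60 (adjusted p = 0.00154). Summed CPM of the 10 naive mESC markers were 5664 and 5881 in the WT libraries against 5463 and 5565 in the Haspin-KO libraries, and 0 of them passed an adjusted p of 0.05 in edgeR's quasi-likelihood test, against 1 lower at an unadjusted p under 0.05. Of the 10 markers, 8 were fitted below 0, against 7890 of all 15580 genes, and the groups overlapped for 7. The 2 fitted above 0 were Sox2 (0.08) and Tfcp2l1 (0.05). Klf4 and Pou5f1, the genes of this list with the smallest p, had log2 fold changes of -0.29 (adjusted p = 0.0604) and -0.14 (adjusted p = 0.274). Klf4 was called in DESeq2 (-0.30, adjusted p = 0.0335), and in edgeR after thinning to the smallest library (0.0489) and without a filter on low counts (0.00732).

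The transcript that carried the only change called among these genes was that of Ccnd2 (cyclin D2, ENSMUSG00000000184), at chr6:127125162-127152193 of mm10 on the minus strand. The counts cover the 9409 exonic bases of all its isoforms. The 2 primers that the study used to measure Ccnd2 by qPCR show which part of the message that assay read. They are given from 5′ to 3′, without capitals since neither contains a mismatch:
Ccnd2-F: acctcccgcagtgttcctatt
Ccnd2-R: cacagacctctagcatccagg
The forward primer matched exon 1 at chr6:127150647-127150667. The reverse primer spanned the junction of exons 1 and 2, between 127148873 and 127150595. In GENCODE M21 (GRCm38) each matched 1 gene, with both matches inside the coding sequence of the first-numbered transcript of Ccnd2, and they enclosed 93 bases. That transcript has 5 exons and 6330 bases, of which 867, or 13.7%, are coding without the stop codon. The amplicon therefore lies in coding sequence, whereas most of the bases over which RNA-seq reads were counted are not coding. By qRT-PCR the study reports significantly lower levels of Ccnd2, Serpinf1 and Wnt5a in Haspin-KO cells, the direction of its RNA-seq.

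Ccnd2 was lower in Haspin-KO cells. It had 186 and 101 counts in WT and 47 and 41 in Haspin-KO libraries, or 8.51 and 5.83 CPM against 3.27 and 2.87 CPM. The groups did not overlap, and the WT libraries differed more from each other than the Haspin-KO libraries did. The level was 2.34-fold lower, with a log2 fold change of -1.23 (95% interval -1.80 to -0.66, standard error 0.25, adjusted p = 0.0388). The call rested on both WT libraries: without WT replicate 1 the log2 fold change was -0.93 (adjusted p = 0.253), and without WT replicate 2 it was -1.47 (adjusted p = 0.0551). In limma's test on log2(FPKM + 0.1), where FPKM are the deposited counts scaled by exonic length and library total, the log2 fold change was -1.01 (adjusted p = 0.244). That test called 0 of 14817 genes (1491 lower and 1245 higher at an unadjusted p under 0.05), so the lack of a call was not particular to Ccnd2.

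With a fold change over 2 and an adjusted p under 0.05, Ccnd2 was the 1 member of 52 called lower, against 0.501% of all genes tested. No member was called higher (0 of 52, with 0.327% of all genes called and 5 members higher at an unadjusted p under 0.05). DESeq2 also called 1 member, Ccnd2, by this rule. Without the fold threshold Ccnd2 remained the only member called, 1.92% of those tested, against 2.5% of all genes. At an unadjusted p under 0.05, 5 members were lower and 5 were higher, which is 9.62% each, against 10.4% of all genes lower and 10.4% higher. With a library left out, the 5 lower became 2 (without Haspin-KO replicate 1) to 6 (without Haspin-KO replicate 2), and the 5 higher became 1 (without WT replicate 1 or Haspin-KO replicate 2) to 6 (without WT replicate 2). Both Haspin-KO libraries lay below both WT libraries for 16 members (30.8%), against 26.9% of all genes, and above them for 15 members (28.8%), against 25.3%. The groups overlapped for the other 21 members. By the unadjusted p and by the lack of overlap, the shares of members lay near those of the whole table, and the counts past an adjusted p rest on Ccnd2 alone.

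**Figure D1:**
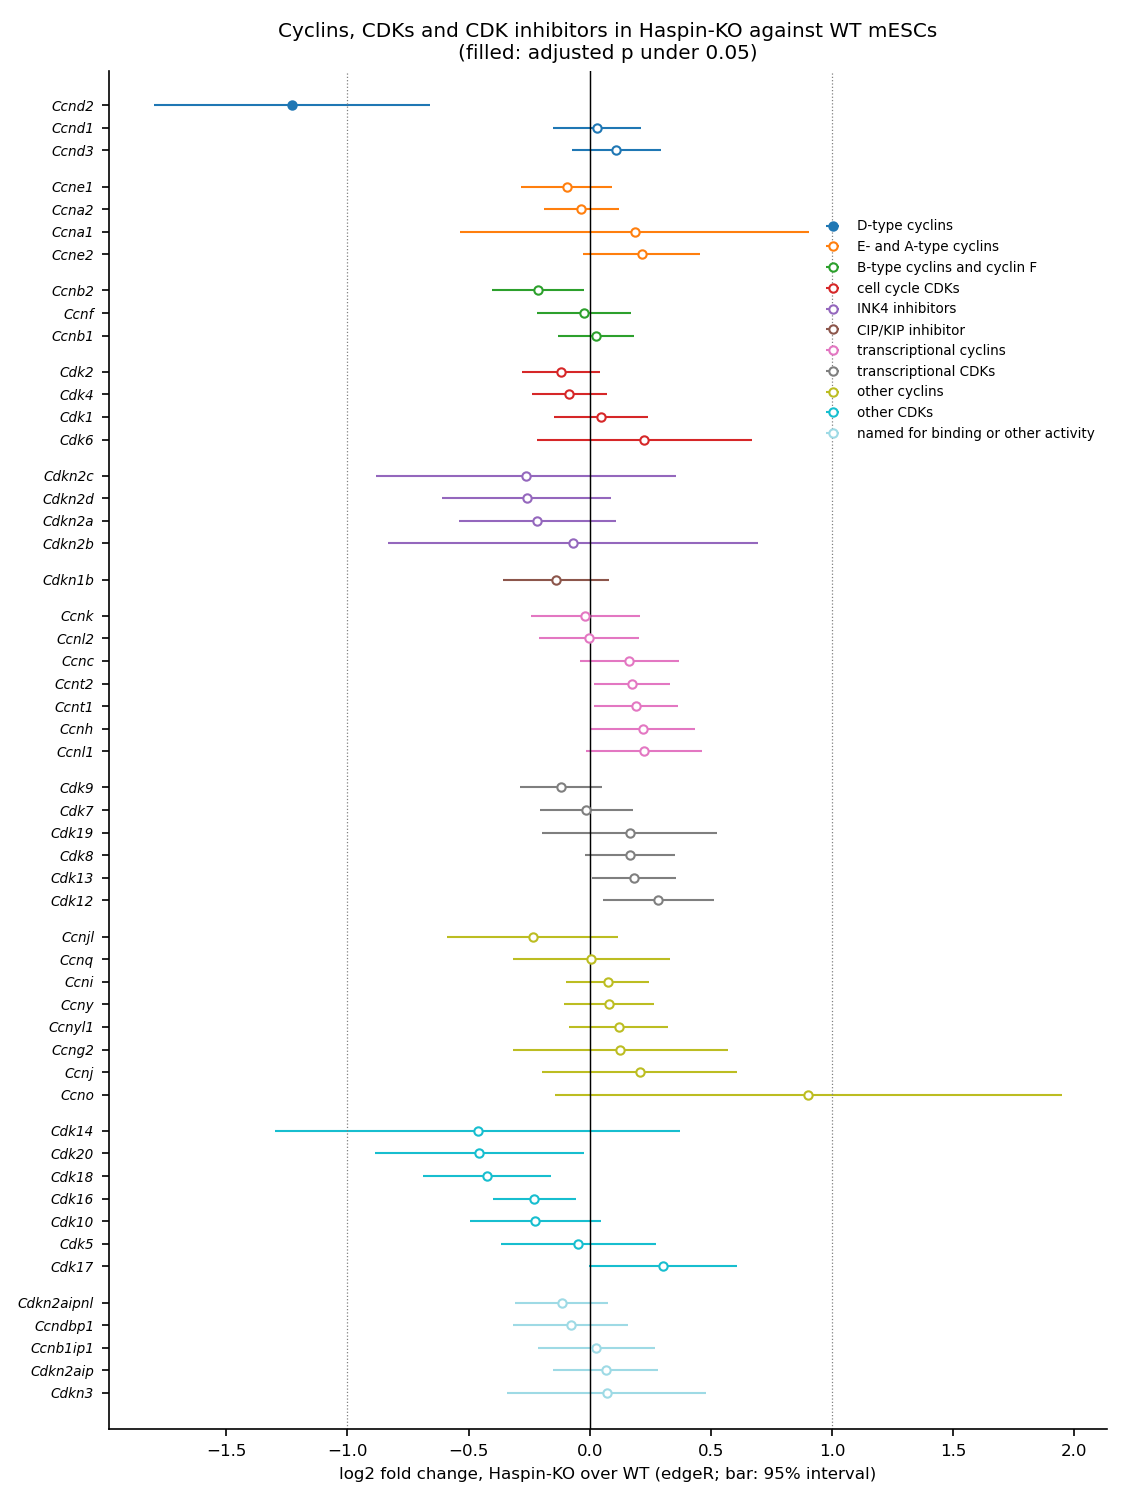
Log2 fold change of each of the 52 tested genes in Haspin-KO over WT cells (horizontal axis), grouped by role, with 95% intervals from edgeR as bars and a filled point where the adjusted p is under 0.05. Ccnd2 alone is filled, at -1.23, and the intervals of 49 genes lie within the dotted lines at a 2-fold change.

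The fitted differences of most members were small and their intervals narrow. The median log2 fold change of the 52 members was 0.02, against -0.00 over all genes tested, with 25 members fitted below 0 and 27 above. The median absolute log2 fold change was 0.151 for the members and 0.176 for all genes, above the median absolute ratios between replicates. The median absolute log2 ratio between the WT replicates was 0.12 for the members and 0.13 for all genes, and between the Haspin-KO replicates it was 0.11 and 0.14. For 49 of 52 members the 95% interval of the fold change lay within 2-fold in either direction, and for 39 within 1.5-fold. Of all 15580 genes tested, this held for 12013 and 8768. Counts of 100 or more in every library were behind 44 of the 52, against 10006 of all 15580 genes. The part of this depth in the narrow intervals was not tested.

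Ccnd2 was the least abundant D-type cyclin in these cells. Per length, Ccnd2 had 0.91 and 0.62 FPKM in WT and 0.35 and 0.30 FPKM in Haspin-KO libraries, rank 50 of the 55 genes by mean WT level. Ccnd3 was the most abundant D-type cyclin, with 31.2 and 26.9 FPKM in WT and 31.8 and 31.1 FPKM in Haspin-KO libraries. Ccnd1, the D-type cyclin known for its response to mitogens, had 21.6 and 19.7 FPKM in WT and 21.3 and 21.01 FPKM in Haspin-KO libraries. The order Ccnd3, Ccnd1, Ccnd2 held in each library.

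Ccnd2 made up 1.70% and 1.31% of the summed D-type FPKM in the WT libraries (mean 1.504 ± 0.27%, SD, n = 2) and 0.655% and 0.573% in the Haspin-KO libraries (0.614 ± 0.058%, SD, n = 2). The sum of the 3 genes was 53.7 and 47.2 FPKM in WT against 53.5 and 52.4 FPKM in Haspin-KO libraries, and these ranges overlapped. The log2 fold change was 0.03 for Ccnd1 (95% interval -0.15 to 0.21, adjusted p = 0.864) and 0.11 for Ccnd3 (-0.07 to 0.29, adjusted p = 0.477). Exons of LTO1 on the opposite strand cover 23.4% of the exonic length of Ccnd1, and those of Bysl cover 4.11% of that of Ccnd3. The 2 antisense genes that share 3.91% and 3.95% of the Ccnd2 exons had 0 counts in all 4 libraries.

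Markers of embryonic fibroblasts moved in the same direction as Ccnd2. Summed over the 12 markers listed, the WT libraries had 113 and 86.5 CPM and the Haspin-KO libraries 11.9 and 9.81 CPM. All 8 tested were fitted below 0. At an adjusted p under 0.05, 7 were lower in Haspin-KO cells (Col1a1, Col1a2, Col3a1, Col6a3, Pdgfrb, Postn and Prrx1) and 0 higher. Of all 15580 genes, 236 were lower and 154 higher at that threshold. Thy1 had a log2 fold change of -0.51 (adjusted p = 0.474). Lum was at 0 counts in all 4 libraries, and in both Haspin-KO libraries 6 of the 12 markers were at 0, against 1 in each WT library. Col1a2, a fibrillar collagen gene, had 29.5 and 24.2 CPM in WT and 0.487 and 0.490 CPM in Haspin-KO libraries. Within each group, the library with more Ccnd2 also had the larger marker sum. Many other members had the same order of libraries in both groups, such as Cdk1, Ccnf, Cdkn2b, Cdkn2c and Cdk19. Others had the reverse order in both, such as Cdk6, Cdk12, Ccnh and Cdk8. With 2 libraries per group, such an order cannot show that 2 quantities vary together.

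The calls of Pdgfrb, Prrx1 and Col6a3 were lost without either WT library (adjusted p from 0.0569 to 0.239), and those of the 4 other genes were kept in edgeR whichever library was omitted. Fewer cells of a type and less RNA of a gene per cell cannot be told apart in bulk libraries, and the part of fibroblast RNA in the Ccnd2 result was not tested. The summed markers of primitive endoderm were at 42.0 and 35.0 CPM in WT and 44.4 and 30.5 CPM in Haspin-KO libraries. Those of mesoderm were at 34.0 and 60.9 against 31.7 and 51.3 CPM, and the neural markers at 105 and 94.8 against 109 and 114 CPM. No gene of these 3 lists passed an adjusted p of 0.05 in edgeR (1 lower and 1 higher at an unadjusted p under 0.05). The mesoderm gene T had the lowest p among them, with a log2 fold change of -0.81 (adjusted p = 0.123), and the next was the neural gene Nes with 0.27 (adjusted p = 0.229). Eomes had a log2 fold change of -0.11, and the endoderm genes Gata4 and Sox17 of -0.49 and 0.24. The other neural genes went both ways, with 0.16 for Tubb3, 0.55 for Pax6 with overlapping groups, and -0.18 for Sox1. For Sox1 both Haspin-KO libraries lay below both WT libraries.

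**Figure D2:**
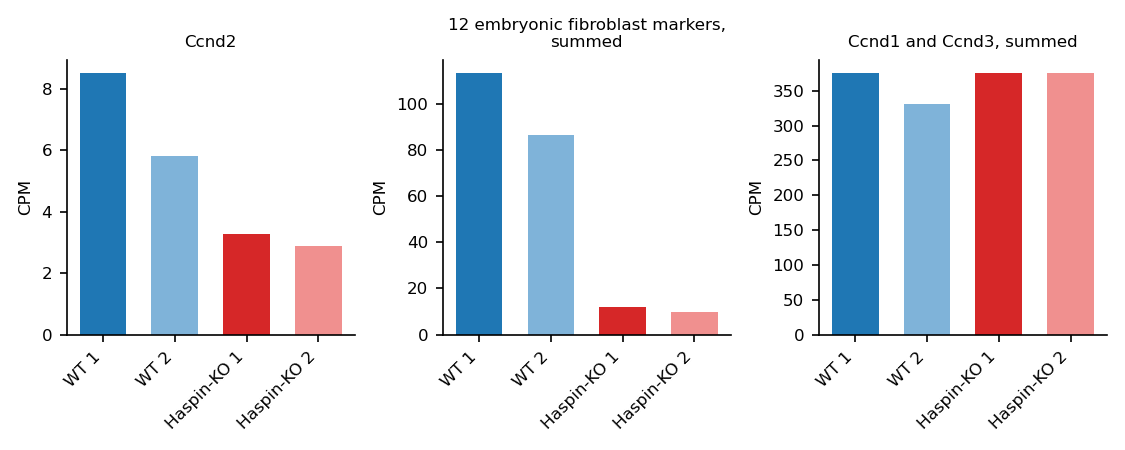
CPM in each of the 4 libraries of Ccnd2 (left), of 12 embryonic fibroblast markers summed (middle) and of Ccnd1 and Ccnd3 summed (right), each on an axis from 0. The first 2 quantities are lower in both Haspin-KO libraries, whereas the sum of Ccnd1 and Ccnd3 is 375 and 331 in WT and 375 and 376 in Haspin-KO libraries.

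The E- and A-type cyclins, which drive entry into and passage through S phase, had 4 genes tested and 0 called (0 at an unadjusted p under 0.05). Ccne1 was far above Ccne2 per length, with 79.5 and 68.7 FPKM in WT and 70.8 and 68.4 FPKM in Haspin-KO libraries, against 7.48 and 8.21 and 9.08 and 9.16 FPKM. The log2 fold change of Ccne1 was -0.10 (95% interval -0.28 to 0.09) and the groups overlapped, since WT replicate 2 was as low as the Haspin-KO libraries. Ccne2 was above both WT values in both Haspin-KO libraries, with a log2 fold change of 0.21 (95% interval -0.03 to 0.45, adjusted p = 0.289), and 17.4% of its exonic length is shared with Ints8 on the opposite strand.

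Ccna2, the A-type cyclin of dividing somatic cells, had 268 and 259 CPM in WT and 254 and 261 CPM in Haspin-KO libraries. Its interval was among the narrowest of the members, from -0.19 to 0.12 on the log2 scale. Ccna1, the germ cell paralogue, had 27 to 42 counts per library and a log2 fold change of 0.18 with an interval from -0.53 to 0.90, so that moderate changes were not detectable at this depth. Together the 4 genes summed to 147 ± 9.26 FPKM in WT and 143 ± 1.13 FPKM in Haspin-KO cells (SD, n = 2 each).

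Of the 3 genes tested among the mitotic cyclins and cyclin F, 1 was lower in Haspin-KO cells at an unadjusted p under 0.05, Ccnb2, and 0 were called. Ccnb2 had 129 and 124 CPM in WT and 103 and 116 CPM in Haspin-KO libraries, with a log2 fold change of -0.21 (adjusted p = 0.197), and its groups did not overlap. Ccnb1, the main activator of CDK1 at entry into mitosis, had 369.9 and 348.9 CPM in WT and 357 and 375 CPM in Haspin-KO libraries. These values overlapped (log2 fold change 0.03, 95% interval -0.13 to 0.18), and 3 pseudogenes with at least 98% identity to a stretch of Ccnb1 had at most 80 counts each against 5126 to 8081 for Ccnb1. Ccnf, an F-box protein that selects substrates of the SCF ubiquitin ligase and does not bind a CDK, had 403 and 353 CPM in WT and 391 and 353 CPM in Haspin-KO libraries.

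**Figure D3:**
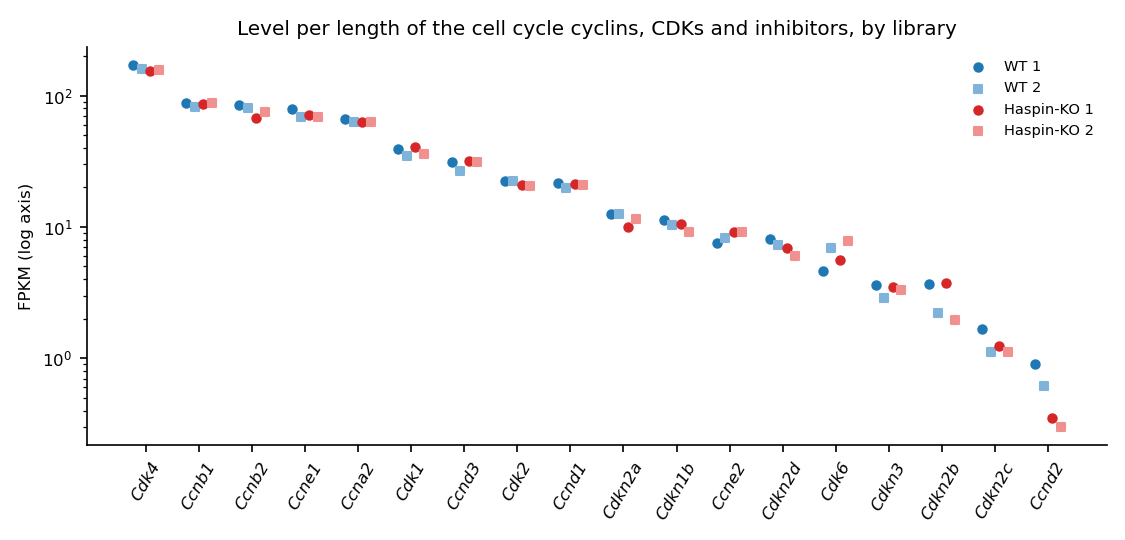
FPKM of 18 cyclins, CDKs, inhibitors and the phosphatase gene Cdkn3 that act on the cell cycle, in each of the 4 libraries, on a log axis and in the order of the mean WT level. Cdk4 stands highest (mean WT level 165 FPKM) and Ccnd2 lowest (0.765), and for genes other than Ccnd2 the points of the 2 groups lie close together.

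None of the 4 tested cell cycle CDKs was called (0 also at an unadjusted p under 0.05). Cdk4 had the highest level per length of all 55 genes, with 171 and 159 FPKM in WT and 154 and 158 FPKM in Haspin-KO libraries. The groups did not overlap, but the gap between the WT replicates was larger than that between the nearest libraries of the groups, and the log2 fold change was -0.08 (95% interval -0.24 to 0.07, adjusted p = 0.527). Tspan31 on the opposite strand shares 19.7% of the Cdk4 exonic length. Cdk2 had 139 and 140.2 CPM in WT and 128 and 129 CPM in Haspin-KO libraries, a log2 fold change of -0.12 (95% interval -0.28 to 0.04, adjusted p = 0.379). The replicates of each group lay close together, and the groups did not overlap.

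Cdk1, the mitotic kinase, had 193 and 171 CPM in WT and 198 and 179 CPM in Haspin-KO libraries, and its groups overlapped (log2 fold change 0.05, adjusted p = 0.798). Cdk6 varied more between replicates than between groups, with 64.0 and 97.3 CPM in WT and 77.4 and 111 CPM in Haspin-KO libraries. Replicate 2 was above replicate 1 in both groups. The log2 fold change of Cdk6 was 0.23 with an interval from -0.22 to 0.67, and without Haspin-KO replicate 1 it was 0.46 (adjusted p = 0.00546), whereas it was -0.05 without WT replicate 1 and -0.06 without Haspin-KO replicate 2.

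The 4 INK4 inhibitor genes were fitted below 0 without a call (0 also at an unadjusted p under 0.05), with a median log2 fold change of -0.24. Of all 15580 genes tested, 7890 were fitted below 0. Cdkn2a, which encodes an INK4 inhibitor and the p53 regulator ARF in different reading frames, had 14.7 and 14.8 CPM in WT and 11.6 and 13.7 CPM in Haspin-KO libraries (log2 fold change -0.22, adjusted p = 0.424). Cdkn2d had 12.8 and 11.5 CPM in WT and 10.7 and 9.60 CPM in Haspin-KO libraries (log2 fold change -0.26, adjusted p = 0.369). For both genes the Haspin-KO libraries were below the WT libraries. Cdkn2c had 4.49 and 3.0 CPM in WT and 3.27 and 3.01 CPM in Haspin-KO libraries, with overlap.

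Cdkn2b stood at 5.08 and 3.11 CPM in WT and 5.15 and 2.73 CPM in Haspin-KO libraries, with its replicates further apart than its groups. Without WT replicate 1 the fitted values of Cdkn2b (0.33) and Cdkn2c (0.06) were above 0 and the median of the 4 genes was -0.06. Cdkn1b, which encodes p27, was the only CIP/KIP gene kept by the symbols used. It had 51.0 and 47.7 CPM in WT and 47.5 and 42.2 CPM in Haspin-KO libraries, a log2 fold change of -0.14 (95% interval -0.36 to 0.08, adjusted p = 0.452). Cdkn3, a phosphatase that acts on CDK2, had 8.51 and 6.86 CPM in WT and 8.22 and 7.98 CPM in Haspin-KO libraries, and its groups overlapped.

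The cyclins and CDKs of the transcription machinery held all 5 of the members that were higher in Haspin-KO cells at an unadjusted p under 0.05: Cdk12, Ccnt2, Ccnt1, Cdk13 and Ccnh. That is 5 of the 13 such genes tested, against 10.4% of all genes. None of the 5 passed the adjusted p in edgeR with all 4 libraries and no block, or in DESeq2. Fits in which some of them did are given with Cdk12 and among the alternatives. Of the 13 genes, 9 were fitted above 0, against 7690 of all 15580 genes, and the median log2 fold change was 0.17. Both Haspin-KO libraries lay above both WT libraries for 8 genes, against 25.3% of all genes, and below them for 1, against 26.9%, and the groups overlapped for 4.

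Cdk12, whose kinase phosphorylates the tail of RNA polymerase II during elongation, lies on chromosome 11 of mm10, chr11:98203059-98278504. It had 261 and 315 CPM in WT and 325 and 375 CPM in Haspin-KO libraries. Replicate 2 was above replicate 1 in both groups, and the lower Haspin-KO library stood just above the higher WT library. The log2 fold change was 0.28 (95% interval 0.05 to 0.51, adjusted p = 0.162), and without Haspin-KO replicate 1 it was 0.38 (adjusted p = 0.00786). Its close relative Cdk13 had 113 and 119 CPM in WT and 135 and 129 CPM in Haspin-KO libraries, a log2 fold change of 0.18 (adjusted p = 0.216). Their partner cyclin K, encoded by Ccnk, had 77.1 and 83.2 CPM in WT and 72.3 and 86.1 CPM in Haspin-KO libraries, which overlapped.

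Ccnt1 and Ccnt2 encode the cyclin partners of CDK9 in P-TEFb, which releases paused RNA polymerase II. Ccnt1 had 125 and 136 CPM in WT and 151 and 146 CPM in Haspin-KO libraries, with a log2 fold change of 0.19 (adjusted p = 0.202). Ccnt2 had 157 and 158 CPM in WT and 179 and 177 CPM in Haspin-KO libraries, with a log2 fold change of 0.17 (adjusted p = 0.199). Cdk9 itself was on the other side, with 114 and 113 CPM in WT and 107 and 103 CPM in Haspin-KO libraries (log2 fold change -0.12, 95% interval -0.29 to 0.05). It was the 1 gene of the 13 whose Haspin-KO libraries lay below both WT libraries.

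Ccnh, the cyclin of the CDK-activating kinase and of TFIIH, had 49.3 and 54.0 CPM in WT and 57.1 and 63.2 CPM in Haspin-KO libraries (log2 fold change 0.22, adjusted p = 0.228). Its partner Cdk7 had 65.4 and 67.9 CPM in WT and 63.4 and 68.4 CPM in Haspin-KO libraries, which overlapped. In the kinase module of Mediator, Ccnc had a log2 fold change of 0.16 and Cdk8 of 0.17, both with Haspin-KO libraries above WT libraries and adjusted p of 0.34 and 0.285, and Cdk19 had 0.17 with overlapping groups. Of the L-type cyclins, which act in splicing, Ccnl1 had 77.9 and 93.7 CPM in WT and 93.8 and 106 CPM in Haspin-KO libraries, and Ccnl2 overlapped (log2 fold change -0.00).

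Without WT replicate 1, 0 of the 13 genes were higher at an unadjusted p under 0.05, although 9 were still fitted above 0 and the median was 0.13. Without Haspin-KO replicate 1 or 2 and without WT replicate 2, the numbers were 3, 1 and 4. DESeq2 gave 1, and edgeR gave 2 after thinning every library to the smallest total or without a filter on low counts, and 5 with the size factors of DESeq2, with library totals or with a minimum of 10 counts. The 3 limma fits gave 2 to 3. In the whole table, too, fewer genes were higher at this threshold with a library left out or in DESeq2. DESeq2 gave 921 of 28670 genes, against 1615 of 15580 in edgeR with all 4 libraries. The summed level of the 7 cyclins was 121 ± 7.11 FPKM in WT and 131 ± 5.79 FPKM in Haspin-KO cells, and that of the 6 CDKs 87.4 ± 3.11 and 93.5 ± 0.792 FPKM (SD, n = 2 each). Exons of an antisense gene cover 7.59% of the Ccnt1 exonic length, with 11 to 21 counts of its own.

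**Figure D4:**
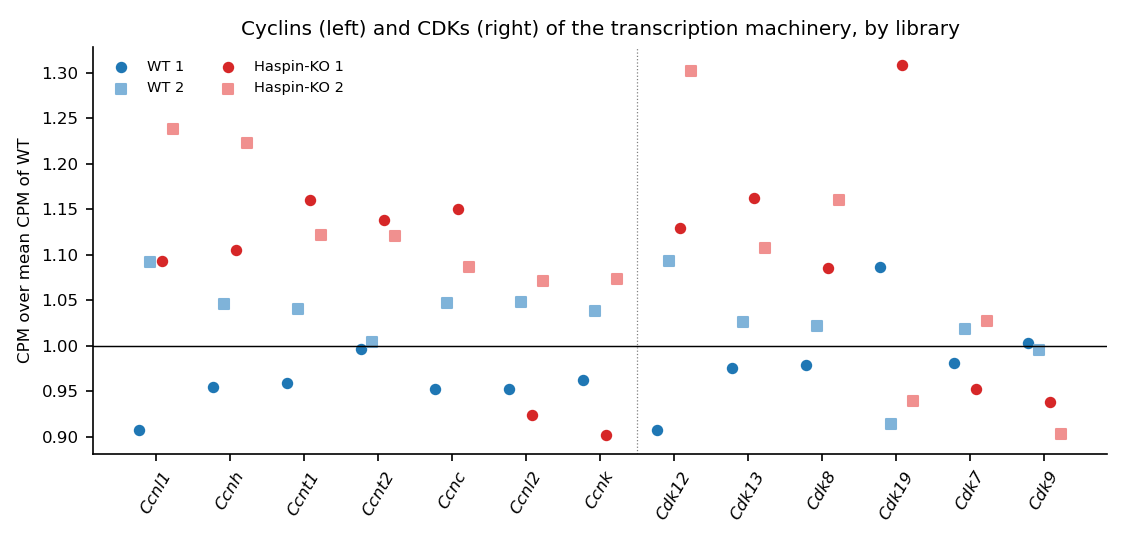
CPM of the 7 cyclins and 6 CDKs of the transcription machinery in each library, divided by the mean WT CPM of the gene (vertical axis, black line at 1). For 8 genes both Haspin-KO points (red) lie above both WT points (blue), and for Cdk9 both lie below.

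Of the CDKs outside the cell cycle and transcription groups, 6 of 7 tested were fitted below 0, against 7890 of all 15580 genes. The median log2 fold change of the 7 was -0.23. At an unadjusted p under 0.05, 3 of the 7 were lower, against 10.4% of all genes (0 after adjustment in edgeR). Cdk18, a kinase of the PCTAIRE family (ENSMUSG00000026437, chr1:132112237-132139684), had the smallest p of the members after Ccnd2. It had 23.7 and 23.2 CPM in WT and 17.9 and 17.1 CPM in Haspin-KO libraries, 1.34-fold lower, with a log2 fold change of -0.42 (95% interval -0.69 to -0.16, standard error 0.12, adjusted p = 0.0882). The gap between the groups was several times the gap within either. Whichever library was omitted, the adjusted p stayed between 0.106 and 0.34.

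Cdk16, the X-linked member of the same family, had 134 CPM in both WT libraries and 111 and 118 CPM in Haspin-KO libraries (log2 fold change -0.23, standard error 0.076, adjusted p = 0.137). Cdk17, the remaining PCTAIRE gene, lay in the opposite direction, with 28.6 and 38.2 CPM in WT and 39.5 and 42.7 CPM in Haspin-KO libraries (log2 fold change 0.30, adjusted p = 0.246). Cdk20, a kinase linked to primary cilia, had 7.92 and 9.17 CPM in WT and 5.57 and 6.86 CPM in Haspin-KO libraries (log2 fold change -0.46, standard error 0.19, adjusted p = 0.219). Cdk10 had 25.1 and 30.8 CPM in Haspin-KO against 32.2 and 33.2 CPM in WT libraries. Cdk14 rested on 13 to 34 counts per library, and Cdk5, the neuronal CDK, had overlapping groups (log2 fold change -0.05).

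The 8 remaining cyclin genes held no call (0 also at an unadjusted p under 0.05), with a median log2 fold change of 0.10. Of these 8, 7 were fitted above 0, against 7690 of all 15580 genes. Ccny, whose cyclin activates CDK14 and CDK16 at membranes, had 59.0 and 60.5 CPM in WT and 63.6 and 62.6 CPM in Haspin-KO libraries (log2 fold change 0.08, 95% interval -0.11 to 0.26). Ccno, a cyclin gene known from multiciliated cells, had the highest fitted value of the members, 0.90, on 12 and 7 counts in WT and 11 and 15 in Haspin-KO libraries, with an interval from -0.14 to 1.95. Ccng2, Ccnj and Ccnq overlapped between the groups, and Ccni, Ccnyl1 and Ccnjl did not, with log2 fold changes of 0.07, 0.12 and -0.24. The 4 genes that carry a cyclin or inhibitor name for a protein they bind (Ccndbp1, Ccnb1ip1, Cdkn2aip and Cdkn2aipnl) had log2 fold changes from -0.12 to 0.07.

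The genes that act on or below these kinases were described by list, each counted in the same fit. The 17 pocket proteins and E2F factors held 1 call at an adjusted p under 0.05, against 2.5% of all genes. At an unadjusted p under 0.05, 2 were lower and 3 higher, against 10.4% of all genes in each direction. Rb1, which encodes the retinoblastoma protein that cyclin D-CDK4 and cyclin E-CDK2 phosphorylate, had 18.3 and 16.5 CPM in WT and 29.2 and 24.3 CPM in Haspin-KO libraries, 1.54-fold higher (log2 fold change 0.62, 95% interval 0.32 to 0.92, adjusted p = 0.0457). The groups did not overlap. The call was lost without WT replicate 1 (adjusted p = 0.127), WT replicate 2 (0.171) or Haspin-KO replicate 1 (0.0719), and with library totals in place of TMM (0.0563). DESeq2 called Rb1 as well (adjusted p = 0.0312). The limma fits on FPKM, which called 0 genes in the whole table, did not (adjusted p from 0.166 to 0.312). E2f7, an atypical repressor E2F, had a log2 fold change of 0.34 (adjusted p = 0.0952), and the list had a median of 0.10 against -0.00 over all genes.

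Among 25 genes of the ubiquitin ligases that degrade cyclins and CDK inhibitors, 0 were called in edgeR, while 6 were lower and 3 higher at an unadjusted p under 0.05, against 10.4% of all genes in each direction. Fbxw7, the F-box protein that targets cyclin E, had 56.9 and 54.9 CPM in WT and 73.0 and 71.7 CPM in Haspin-KO libraries (log2 fold change 0.37, adjusted p = 0.0507). It was called with the size factors of DESeq2 in edgeR (adjusted p = 0.0482), with a minimum of 10 counts (0.0499) and without a filter (0.0339). With the replicate number as a block in edgeR it was called too (1.27e-05), as were 3514 of all 15580 genes. Anapc13, a subunit of the anaphase-promoting complex, had 31.1 and 25.5 CPM in WT and 20.3 and 17.3 CPM in Haspin-KO libraries (log2 fold change -0.59, adjusted p = 0.06). DESeq2 called it (adjusted p = 0.0419), and so did edgeR without a filter (0.0023) and with the replicate block (1.41e-06). Without Haspin-KO replicate 1, Anapc13 was called in edgeR as well (log2 fold change -0.71, adjusted p = 0.00173).

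The remaining lists held 0 calls in edgeR. Of the 8 tested genes for the kinases and phosphatases that act on CDKs and for CKS proteins, 0 passed an unadjusted p of 0.05, and Cks2 and Cks1b, subunits that bind CDKs, had log2 fold changes of -0.16 each. Among 9 genes for other activators and binding proteins, 1 was lower at an unadjusted p under 0.05, Cdk2ap2 (log2 fold change -0.30, adjusted p = 0.199). Cdk5r1, the activator of CDK5, had 0.52 (adjusted p = 0.401) on 25 to 37 counts.

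Of 14 genes of S phase, 11 were fitted below 0, as were 7890 of all 15580 genes, and 4 were lower at an unadjusted p under 0.05, against 10.4% of all genes. Mcm5, a subunit of the replicative helicase, had 842 and 835 CPM in WT and 665 and 748 CPM in Haspin-KO libraries (log2 fold change -0.25, adjusted p = 0.111), and without Haspin-KO replicate 2 its adjusted p was 0.0261. Gins2, of the same helicase, had -0.24 (adjusted p = 0.148). The 14 genes of G2 and M phase had a median of 0.02, with Hmmr at 0.29 (adjusted p = 0.12) and Aurkb at -0.18 (adjusted p = 0.228). The median of the S phase list was -0.10 and that of the naive mESC markers -0.09, against -0.00 over all genes tested.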

How the data were processed

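The authors trimmed reads with Cutadapt (1.9.1), mapped them to mm10 with HISAT2 (2.0.1) and deposited raw counts per gene and library. HTSeq (0.6.1) stands in the submitters' processing notes, and its strand setting and annotation are not given in the sources used here. The deposited FPKM are the counts divided by exonic length and library total, and the table holds no columns of the authors' own comparisons.

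Libraries were grouped by genotype label. The counts of all 4 libraries were tested with edgeR (4.0.16) in R (4.3.3), by filterByExpr, TMM and the quasi-likelihood test, with Benjamini-Hochberg adjustment over 15580 genes. This test was used in place of DESeq2, the tool the study names, which is an alternative here (1.42.0), as is limma (3.58.1) on FPKM with a minimum of 0.5 in 2 libraries. The fits were tested on simulated data. CPM are counts scaled by library total and TMM factor, and the depth of each library is given with the samples. The other alternatives were other normalizations, filters, thinning, the replicate number as a block and leaving out each library.

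The members and gene lists were chosen with earlier results of these data known. Named were members with an adjusted p under 0.05, 18 members that act on the cell cycle, the 5 lower and 5 higher members with the smallest unadjusted p, and from each other list the genes called and the 2 with the smallest p. Other members were added after their values were seen. Primer sequences were matched to GENCODE M21, in which 55 of 55 members had the deposited coordinates. By BLAST (2.17.0), 5 members had a copy with at least 98% identity over 150 bases, and 24 shared exonic bases with another gene. Reads of such genes could be split or shared by the counting.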

Additional observations from a re-analysis of the deposited data

How the results depend on the processing

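Ccnd2 kept its direction under all alternatives. It was not called in limma on log2(FPKM + 0.1), with or without the filter (-1.01 both, adjusted p = 0.244 and 0.36), or on log2(FPKM + 1) (-0.41, adjusted p = 0.239). These 3 fits called 0 genes of 14817 or 28651 in the whole table, so the lack of a call in them was not particular to Ccnd2. With each library left out, where the lone library of a group is assumed to vary like the other group, its log2 fold change ran from -1.47 to -0.93, with adjusted p from 8e-04 to 0.253. The other fits called it, with adjusted p of 0.0299 in DESeq2 and up to 0.0485 with library totals. Its share of D-type FPKM fell by 0.891 percentage points, and by 0.7 to 1.08 with a library left out.

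The number of members called with a fold change over 2 was 1, and it was 0 to 1 with a library left out. It was 0 in the 3 limma fits, as for the whole table. Without the fold threshold it was 0 in the 3 limma fits, where 4 members were lower and 2 to 4 higher at an unadjusted p under 0.05. It was 2 without a filter on low counts (Ccnd2 and Cdk18) and 0 to 3 with a library left out, the 3 being Ccnd2, Cdk12 and Cdk6 without Haspin-KO replicate 1.

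The labels give both groups replicates 1 and 2 and do not say whether equal numbers share a batch, so it is not known whether the libraries are paired. The differences between replicates 1 and 2 in WT and in Haspin-KO cells correlated with r = 0.338 over 15580 genes, which are not independent. With the replicate number as a block, which leaves 1 residual degree of freedom, 13 members had an adjusted p under 0.05 (Ccnb2, Ccnd2, Ccnh, Ccnl1, Ccnt1, Ccnt2, Cdk6, Cdk12, Cdk13, Cdk16, Cdk17, Cdk18 and Cdk20), as had 3514 of 15580 genes, and 1 of the members, Ccnd2, a fold change over 2 (log2 fold change -1.22). Of the 13 transcription genes, 8 were higher at an unadjusted p under 0.05 with the block, as were 2614 of all 15580 genes. In the whole table the replicate block gave 240 genes higher and 167 lower past both thresholds, against 51 and 78 without it.

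Directions near 0 were not stable. Ccnb1 was at -0.0027 without a filter on low counts. With a library left out, the log2 fold changes ran from -0.015 to 0.064 for Ccnb1, -0.026 to 0.088 for Ccnd1, -0.19 to 0.0044 for Ccne1, -0.033 to 0.13 for Cdk1, -0.059 to 0.56 for Cdk6, -0.60 to 0.33 for Cdkn2b, -0.51 to 0.062 for Cdkn2c, -0.071 to 0.23 for Cdkn3 and -0.58 to 0.38 for Eomes. The median of the 13 transcription genes stayed above 0 in all 14 alternatives (0.13 to 0.20), and that of the INK4 genes below 0 (-0.35 to -0.06). With 2 libraries per group and counts under 50 for some members, such as Ccno, Ccna1 and Cdk14, moderate changes were beyond the depth.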

Other observations

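Of the 3 genes excluded by name, Ccng1, an atypical cyclin and p53 target, had 408 and 426 CPM in WT and 596 and 529 CPM in Haspin-KO libraries (log2 fold change 0.43, adjusted p = 0.0249 in edgeR), a call without the fold threshold only. Cdkn1a, which encodes p21, had 159 and 137 CPM in WT and 148 and 122 CPM in Haspin-KO libraries (log2 fold change -0.13, adjusted p = 0.53), and Cdkn1c, an imprinted inhibitor gene, had 2.61 and 1.5 against 4.53 and 2.59 CPM (log2 fold change 0.77, adjusted p = 0.265). All 3 were named after their values were seen.

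Kinase genes whose symbols the pattern did not match were examined in the same fit. Cdk11b, the partner of the L-type cyclins, had 126 and 124 CPM in WT and 121 and 128 CPM in Haspin-KO libraries (log2 fold change -0.00, adjusted p = 0.983). Cdkl2, a CDK-like gene, had a log2 fold change of 0.31 (adjusted p = 0.281), with both Haspin-KO libraries above both WT libraries. The pseudogenes Ccnb1-ps and Ccnb2-ps had 37 to 80 and 50 to 76 counts per library, with log2 fold changes of -0.05 and -0.14, and Ccnd3-ps had 0 counts in all 4 libraries.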
